A study of Mus musculus with 24 samples.

Results

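The 41 genes described here encode the machinery that builds autophagosomes, the receptors that bring cargo to them, and the kinase complex mTORC1 that restrains the process. They were chosen by name, and all 41 were found among the 54532 genes of the count table. RNA was sequenced from the livers of young adult male mice after a 24 h fast, with 6 genotypes and 4 livers each. Rab30 is a small GTPase of the Golgi, and Cpt2 is the mitochondrial enzyme that long-chain fatty acids need to enter oxidation.

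Livers labelled Rab30L-/- and Cpt2L-/- lost a floxed Rab30 or Cpt2 allele through a Cre transgene under the albumin promoter, which acts in hepatocytes and leaves the other liver cells unrecombined. Livers labelled DKO carried both floxed genes together with the same Cre. The floxed controls, written ff;ff in the study, carried both floxed genes without Cre and are labelled as littermates of the DKO only. Livers labelled Rab30KO lacked Rab30 in the whole body, and the Rab30 controls were their wild-type littermates. The questions were whether the autophagy genes of the fasted liver changed when Rab30 was lost, when fatty acid oxidation was lost, and when both were lost.

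During a fast, hepatocytes degrade part of their own cytoplasm in autophagosomes, which fuse with lysosomes and release amino acids and lipids. mTORC1 phosphorylates the ULK kinase complex and keeps it quiet while nutrients are plentiful, and low nutrients lift that brake. ULK then acts on the class III PI3-kinase complex at the forming membrane, and a pair of ubiquitin-like conjugation reactions attach LC3 and GABARAP proteins to phosphatidylethanolamine. Cargo receptors bind these lipid-anchored proteins on one side and ubiquitin, mitochondria or other cargo on the other. Much of this regulation acts on proteins, and mRNA levels alone do not report autophagic flux.

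The 150 bases before the RefSeq start (GRCm38.p6) are shown for 3 members that moved together when Cpt2 was lost, each from an upstream window that touched no annotated exon. Capitals mark CACGTG, the core letters bound by the TFEB family of lysosomal regulators and by many other factors. The Mtor window lies at chr4:148448432-148448581 on the plus strand, the Optn window at chr2:5064118-5064267 on the minus strand and the Atg7 window at chr6:114670946-114671095 on the plus strand.
Mtor: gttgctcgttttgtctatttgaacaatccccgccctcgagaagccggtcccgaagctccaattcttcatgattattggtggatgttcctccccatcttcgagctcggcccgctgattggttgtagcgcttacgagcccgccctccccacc
Optn: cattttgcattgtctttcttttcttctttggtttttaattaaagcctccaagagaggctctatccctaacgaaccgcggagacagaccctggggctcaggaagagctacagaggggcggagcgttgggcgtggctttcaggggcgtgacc
Atg7: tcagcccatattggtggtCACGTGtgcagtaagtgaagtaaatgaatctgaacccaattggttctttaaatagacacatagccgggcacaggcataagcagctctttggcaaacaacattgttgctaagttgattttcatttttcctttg

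The Atg7 window held 1 CACGTG, and the Mtor and Optn windows held none. GC content was 56.0% for Mtor, 52.7% for Optn and 40.7% for Atg7, whose RefSeq start lies inside the longer gene of the count table (chr6:114643097-114860614). RefSeq windows from 250 bases before to 50 bases after the start were found for 33 of the 41 members. CACGTG, searched on both strands, stood in 5 of these 33 windows (15.2%) and in 7.15% of all 32851 windows. The 5 were Atg14, Atg3, Atg5, Atg7 and Bnip3. TCACGTGA, which contains the shorter motif, stood in 1 of the 33 windows (3.03%, Atg3) against 0.974% of all. None of the 33 held GTAAACA, the forkhead core found in 3.65% of all windows, the direct repeat bound by PPAR and RXR (0.0396%), or TGATGCAA (0.895%).

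Library totals ranged from 11801027 to 24497738 counts, and every pair of replicates differed beyond counting noise. No member fell below 26 counts in any library, so all 41 were tested in every comparison. The targeted genes followed their labels only in part over the whole gene. Rab30 was at 122 to 188 CPM (counts scaled to a common library size) in livers labelled Cpt2L-/- and at 101 to 231 CPM in livers labelled DKO, against 25.9 to 44.6 CPM in the floxed controls and 10.4 to 26.6 CPM in Rab30L-/- (2.15-fold lower than the floxed controls, adjusted p = 0.174). In Rab30KO it was at 5.39 to 17.4 CPM and in its controls at 6.64 to 30.1 CPM. Cpt2 was at 95.3 to 167 CPM in livers labelled Cpt2L-/- and at 128 to 139 CPM in the floxed controls. In livers labelled DKO it was at 96.1 to 120.0 CPM, below the floxed controls with no overlap (adjusted p = 0.0911) and 2.09-fold below Rab30L-/- (170 to 268 CPM, adjusted p = 0.000449). Counts over a gene whose other exons are still transcribed cannot check an exon deletion, so genotypes below, and phrases such as loss of Cpt2, are those of the labels. The summed level of 5 hepatocyte markers was 37820 to 48322 CPM in Cpt2L-/-, 52059 to 62473 CPM in DKO, 66562 to 81202 CPM in Rab30L-/- and 86146 to 111530 CPM in the floxed controls. The 6 Kupffer cell markers summed to 105 to 159, 109 to 128.8, 177 to 529.9 and 128.9 to 244 CPM in the same order. DKO lay below Rab30L-/- and, by a narrow gap, below the floxed controls with no overlap, while Cpt2L-/- overlapped the floxed controls. The 5 markers of sinusoidal endothelium summed to 158 to 187, 162 to 217, 133 to 157 and 149 to 214 CPM, higher in DKO than in Rab30L-/- with no overlap. Those of bile duct summed to 9.57 to 24.0, 11.97 to 20.9, 17.9 to 32.7 and 15.3 to 31.9 CPM, with overlap in every comparison made. Of these, Sox9 was at 0.58 to 1.70 CPM in Cpt2L-/- and 1.11 to 2.35 CPM in DKO. It was at 3.62 to 5.85 CPM in the floxed controls and 3.82 to 9.59 CPM in Rab30L-/-, so it was lower with no overlap in each Cpt2 comparison. The other bile duct markers overlapped there. The 6 stellate cell markers summed to 261 to 283, 256 to 303, 246 to 269.97 and 143 to 265 CPM, also with overlap in every comparison made. Single markers of this list separated groups in both directions. Dcn was higher in DKO (192 to 205 CPM) than in the floxed controls (103 to 178 CPM) and Rab30L-/- (158 to 173 CPM) with no overlap. Colec11 was lower in DKO (16.4 to 25.4 CPM) than in Rab30L-/- (26.9 to 45.5 CPM) with no overlap. Rab30L-/- livers were also above the floxed controls for Colec11 (10.7 to 24.95 CPM). The hepatocyte sums did not overlap between any 2 of these groups, and Alb made up most of each sum (27691 to 36385 CPM in Cpt2L-/- and 70998 to 94359 CPM in the floxed controls). Apoa1 did not follow, at 6381 to 7862 CPM in Cpt2L-/- and 4862 to 10999 CPM in the floxed controls, and Tat overlapped between DKO and Rab30L-/-. The sums of Rab30KO (83009 to 114260 CPM) and its controls (86448 to 114460 CPM) overlapped. The part of these markers in the member results was not tested. In whole liver, fewer cells of a type and less RNA per cell cannot be told apart.

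FPKM divides counts by gene length and so allows genes to be compared. By its mean over the 24 libraries, Sqstm1 ranked first among the members, at 191 (range 90.0 to 394). Gabarapl1 followed at 145 (range 100.3 to 194) and Bnip3 at 135 (range 96.0 to 194). This order did not hold in every genotype. Sqstm1 averaged 337 in Cpt2L-/- and 294 in DKO, but was below Gabarapl1 in Rab30L-/- (150 against 155). It was below Gabarapl1 and Bnip3 in the Rab30 controls (108 against 128 and 126) and in Rab30KO (110 against 130 and 141). Bnip3 was above Gabarapl1 in Rab30KO and in DKO (175 against 162). Sqstm1 encodes p62, the receptor that carries ubiquitinated cargo, Gabarapl1 a GABARAP protein, and Bnip3 a receptor on mitochondria. At the other end, Atg10, an E2-like conjugating enzyme, averaged 2.10 FPKM. Pik3r4, the regulatory subunit of the PI3-kinase complex, averaged 2.47 FPKM and Atg4b, a protease that trims LC3, 3.23 FPKM.

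**Figure D1:**
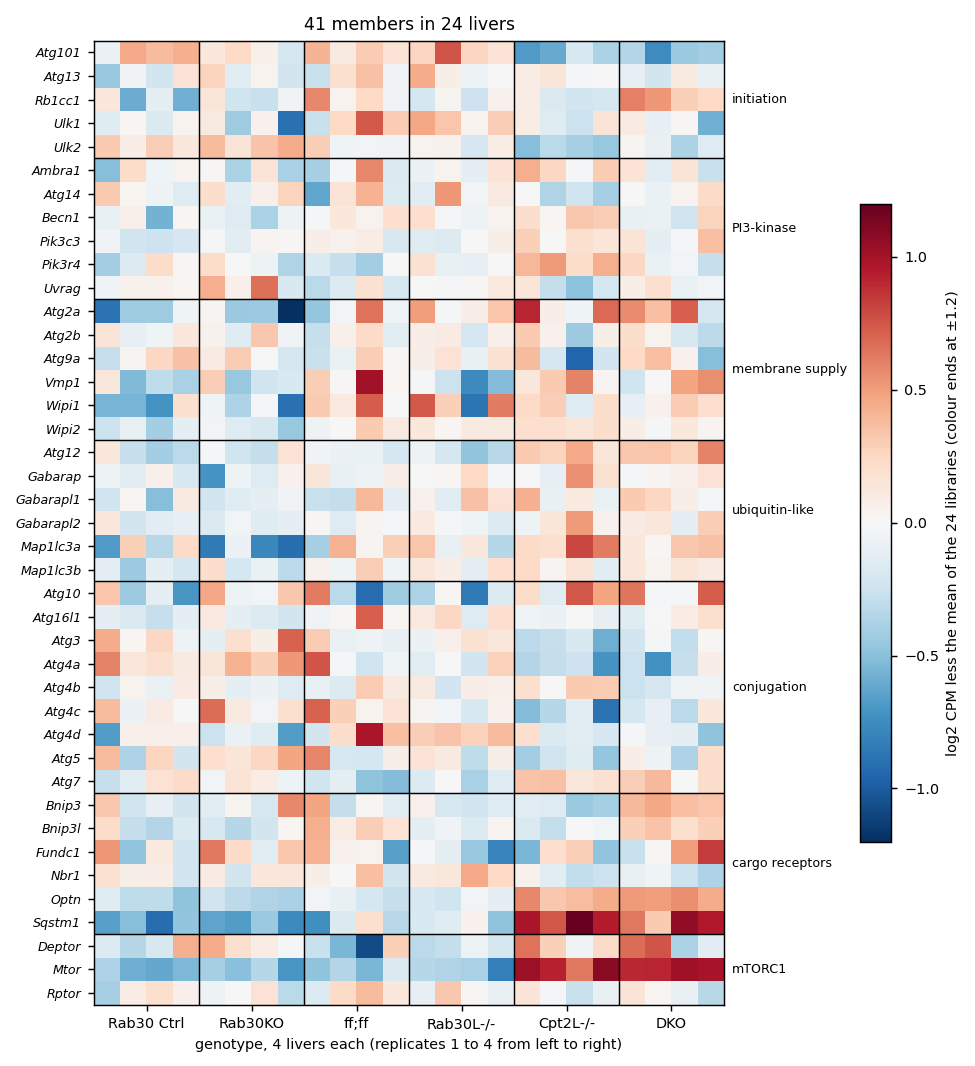
Log2 CPM of the 41 members (rows, by role) in the 24 livers (columns, by genotype), each less the gene's mean over the 24 libraries, with red above and blue below that mean. Mtor, Sqstm1 and Optn are red in all 8 livers labelled Cpt2L-/- or DKO, and Atg101 is blue in all 8.

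Loss of Rab30 alone moved no member past the thresholds, which were a Benjamini-Hochberg adjusted p under 0.05 over all genes and a change of at least 1.2-fold in edgeR's quasi-likelihood test. In Rab30KO against its controls the count was 0 of 41, beside 0.0220% of 13656 genes. At an unadjusted p under 0.05 it was also 0 of 41, against 2.21% of all genes, and DESeq2 called 0. No member separated the groups fully, which 1.31% of all genes did. The largest difference was that of Map1lc3a, an LC3 gene, at -0.54 ± 0.25 on the log2 scale (SE, adjusted p = 1). The members' median absolute log2 difference was 0.08, against 0.15 over all genes tested.

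In Rab30L-/- against the floxed controls the count was again 0 of 41, beside 0.479% of 13367 genes, and DESeq2 also called 0. Unadjusted p-values were under 0.05 for 2 members (4.88%), Vmp1 and Bnip3l, against 11.2% of all genes. Those were also the 2 whose groups did not overlap, against 6.38% of all genes. Vmp1, a protein of the endoplasmic reticulum that moves lipid to the growing membrane, differed by -0.76 ± 0.24 on the log2 scale (adjusted p = 0.264). Bnip3l, a mitochondrial cargo receptor, differed by -0.33 ± 0.13 (adjusted p = 0.361). Standard errors of the 41 log2 differences lay between 0.12 and 0.36 here and between 0.13 and 0.30 in the whole-body comparison. Differences of the size of these errors were not detectable with 4 livers a group.

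Loss of Cpt2 moved more members. In Cpt2L-/- against the floxed controls 9 of 41 passed (22.0%, beside 23.8% of 13270 genes), 6 higher and 3 lower, where 11.9% of all genes were higher and 11.9% lower. Groups did not overlap for 12 members (29.3%, against 26.7% of all genes). In DKO against the same floxed controls 6 passed (14.6%, beside 16.1% of 13389 genes), 5 higher and 1 lower, where 7.87% of all genes were higher and 8.24% lower. Groups did not overlap for those 6 members (14.6%, against 20.5%). In DKO against Rab30L-/-, where both groups lack Rab30 by label, 11 passed (26.8%, beside 30.7% of 13292 genes). Of these, 8 were higher and 3 lower, where 14.9% of all genes were higher and 15.8% lower, and groups did not overlap for 11 members (26.8%, against 31.5%). In each comparison the share of members past the thresholds was near or below that of all genes. The median absolute log2 difference of the members was 0.34, 0.19 and 0.19, against 0.34, 0.31 and 0.37 over all genes.

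The comparison of Cpt2L-/- with the floxed controls and that of DKO with Rab30L-/- share no library, though Cpt2 loss was a labelled difference in both. The labels name DKO as littermates of the floxed controls only, so genotype and litter cannot be told apart in either comparison. Of the 9 and 11 members past the thresholds, 6 passed in both and with the same sign, which is 66.7% of the first list and 54.5% of the second. Over all 12970 genes tested in both, the shares were 54.6% and 41.9%. The 6 were Mtor, Sqstm1, Optn, Atg7 and Atg12, which were higher, and Atg101, which was lower, and these were also the 6 that passed in DKO against the floxed controls. Over all 7 tests 14 of the 41 members passed at least once (34.1%) and 27 passed in none, where 41.9% of the 12617 genes tested in all 7 passed at least once.

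**Figure D2:**
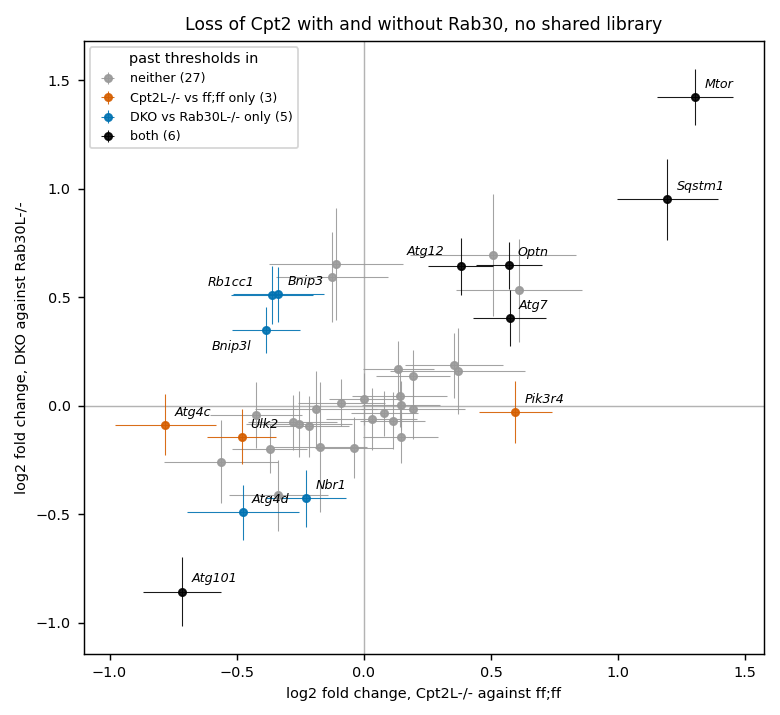
Log2 fold change of each member on loss of Cpt2, in Cpt2L-/- against the floxed controls (x axis) and in DKO against Rab30L-/- (y axis), with bars of 1 SE from edgeR. Mtor (1.30 and 1.43) and Sqstm1 (1.19 and 0.95) lie far from the other members at the upper right, Atg101 (-0.71 and -0.86) at the lower left, and Bnip3, Bnip3l and Rb1cc1 lie at the upper left.

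Within mTORC1, Mtor, the kinase itself, had the largest change of any member. It was at 169.65, 157, 128 and 175 CPM in the 4 livers labelled Cpt2L-/-, at 155, 156, 167 and 165 CPM in those labelled DKO, and at 59.0, 64.7, 56.7 and 73.3 CPM in the floxed controls. Rab30L-/- livers held 65.2, 64.4, 63.2 and 46.8 CPM, and all 8 livers of the whole-body cross lay between 51.1 and 65.4 CPM. Every liver labelled Cpt2L-/- or DKO was thus above every liver of the other 4 groups. The difference was 2.47-fold in Cpt2L-/- against the floxed controls (log2 1.30 ± 0.15 SE, adjusted p = 5.3e-05), 2.52-fold in DKO against them (log2 1.33 ± 0.13) and 2.69-fold in DKO against Rab30L-/- (log2 1.43 ± 0.13, adjusted p = 3.6e-05). DKO and Cpt2L-/- differed by 0.04 on the log2 scale. Mtor lies at chr4:148448611-148557683 on the plus strand, on the same chromosome as Cpt2 and as the member Atg4c.

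The other mTORC1 members did not follow Mtor past the thresholds as fitted. Rptor, the scaffold that picks mTORC1 substrates, differed by -0.21 ± 0.16 on the log2 scale in Cpt2L-/- against the floxed controls and by -0.09 ± 0.14 in DKO against Rab30L-/-. Deptor, an inhibitory partner of the kinase, differed by 0.61 ± 0.25 (adjusted p = 0.096) and 0.53 ± 0.24 (adjusted p = 0.114). Its levels were spread widely within groups, from 67.9 to 174 CPM in the floxed controls alone. Deptor passed in the first comparison with no filter on low counts (log2 0.63, adjusted p = 0.0369) and without floxed control replicate 4 (log2 0.87, adjusted p = 0.0158), and without DKO replicate 3 it passed in the second (log2 0.71, adjusted p = 0.0222).

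Among the 6 cargo receptors, Sqstm1 and Optn rose on loss of Cpt2. Bnip3l was lower in Cpt2L-/- than in the floxed controls with no overlap (log2 -0.38 ± 0.13, adjusted p = 0.0542), which did not pass as fitted but did with DESeq2 size factors (adjusted p = 0.0466), in DESeq2 (adjusted p = 0.0194) and in the fit over 24 libraries (adjusted p = 0.0309). Sqstm1 was at 1118, 949, 1323 and 1085 CPM in Cpt2L-/-, at 877, 704, 1187 and 1104 CPM in DKO, at 339.5, 502, 646 and 449.9 CPM in the floxed controls and at 499, 512, 587 and 405 CPM in Rab30L-/-. The lowest liver labelled Cpt2L-/- or DKO was above the highest of the others. The change was 2.29-fold in Cpt2L-/- against the floxed controls (log2 1.19 ± 0.20 SE, adjusted p = 0.000796) and 1.94-fold in DKO against Rab30L-/- (log2 0.95 ± 0.19, adjusted p = 0.00304). It lies at chr11:50199366-50210827 on the minus strand. An opposite gene, Mrnip, overlaps 17.3% of its exons, but held 333 counts in the 24 libraries against 241581 for Sqstm1.

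Optn encodes optineurin, which joins ubiquitin on damaged mitochondria and bacteria to LC3. It was at 209, 176, 181 and 192 CPM in Cpt2L-/-, at 200.2, 199, 207 and 191 CPM in DKO, at 137, 132, 121 and 116 CPM in the floxed controls and at 124, 119, 137 and 129 CPM in Rab30L-/-. Again the groups did not overlap, and the spread within each was narrow. The change was 1.48-fold (log2 0.57 ± 0.13, adjusted p = 0.00649) in Cpt2L-/- and 1.57-fold in DKO against Rab30L-/- (log2 0.65 ± 0.11, adjusted p = 0.0012). It lies at chr2:5020642-5064051 on the minus strand. Nbr1, a receptor related to p62, fell by 0.42 ± 0.13 on the log2 scale in DKO against Rab30L-/- (adjusted p = 0.0293). That call was lost without Rab30L-/- replicate 3 or 4 or DKO replicate 1, 3 or 4 (adjusted p 0.0531 to 0.078) and with no filter on low counts (adjusted p = 0.0653). In Cpt2L-/- against the floxed controls Nbr1 differed by -0.23.

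In the conjugation machinery Atg7, the E1-like enzyme shared by both reactions, and Atg12, the ubiquitin-like protein joined to ATG5, rose. Atg7 was at 70.9, 71.6, 61.6 and 63.4 CPM in Cpt2L-/-, at 68.6, 73.5, 56.2 and 64.9 CPM in DKO, at 47.5, 51.7, 40.0 and 39.2 CPM in the floxed controls and at 49.8, 55.8, 42.8 and 50.4 CPM in Rab30L-/-. The groups were just apart, and the Rab30 controls of the whole-body cross, at 46.2 to 65.7 CPM, overlapped both sides. The change was 1.49-fold in Cpt2L-/- (log2 0.57 ± 0.14, adjusted p = 0.0106), 1.47-fold in DKO against the floxed controls (log2 0.55 ± 0.15, adjusted p = 0.0223) and 1.33-fold in DKO against Rab30L-/- (log2 0.41 ± 0.13, adjusted p = 0.0327). The first call held without any 1 library. The call in DKO against the floxed controls was lost without DKO replicate 1 or 2 or floxed control replicate 4 (adjusted p 0.0652 to 0.0773), and that against Rab30L-/- without Rab30L-/- replicate 1, 3 or 4 or DKO replicate 1 or 2 (adjusted p 0.0506 to 0.0796).

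Atg12, on chromosome 18, was at 45.9, 44.6, 50.7 and 41.0 CPM in Cpt2L-/-, at 46.4, 46.5, 44.4 and 56.0 CPM in DKO, at 36.0, 35.4, 35.1 and 32.2 CPM in the floxed controls and at 35.6, 32.2, 26.6 and 29.5 CPM in Rab30L-/-. No floxed control or Rab30L-/- liver reached the lowest of those labelled Cpt2L-/- or DKO, but the gap was small, and Rab30KO livers, at up to 41.8 CPM, did reach it. The change was 1.56-fold in DKO against Rab30L-/- (log2 0.64 ± 0.13, adjusted p = 0.00369), a call that no single library decided. It was 1.30-fold in Cpt2L-/- (log2 0.38 ± 0.13, adjusted p = 0.0455) and 1.39-fold in DKO against the floxed controls (log2 0.47 ± 0.13, adjusted p = 0.0265). The Cpt2L-/- call was lost without each of 7 of the 8 libraries, all but floxed control replicate 1 (adjusted p 0.0536 to 0.124), and with DESeq2 size factors (adjusted p = 0.0555) or no filter on low counts (adjusted p = 0.116). The DKO call was lost without DKO replicate 1, 2 or 4 or floxed control replicate 2 or 4 (adjusted p 0.05 to 0.0791) and with no filter on low counts (adjusted p = 0.0527).

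Of the other conjugation enzymes, the proteases of the ATG4 family prepare LC3 and GABARAP for conjugation and later free them. Atg4c fell by 0.78 ± 0.20 on the log2 scale in Cpt2L-/- (adjusted p = 0.0121), from 17.7 ± 3.83 to 10.4 ± 2.20 CPM (SD, n = 4 each), and differed by -0.09 ± 0.14 in DKO against Rab30L-/-. Atg4d fell by 0.49 ± 0.13 in DKO against Rab30L-/- (adjusted p = 0.0134) and differed by -0.48 ± 0.22 in Cpt2L-/- (adjusted p = 0.14). The Atg4d call was lost when 1 fit covered all 24 libraries (adjusted p = 0.0666). Atg4d shares 19.3% of its exons with the opposite gene Kri1, and whether counting used the strand is not stated, so its counts are uncertain. Atg3, Atg4a, Atg4b, Atg5, Atg10 and Atg16l1 passed in no comparison as fitted. In Cpt2L-/- against the floxed controls, Atg4a passed in the fit over 24 libraries (log2 -0.55, adjusted p = 0.0497) and without floxed control replicate 3 (log2 -0.67, adjusted p = 0.0425), and Atg10 passed without floxed control replicate 1 (log2 0.87, adjusted p = 0.041). Atg4d passed there without the same library (log2 -0.63, adjusted p = 0.0331). Atg10 differed by 0.51 ± 0.33 in Cpt2L-/- against the floxed controls and 0.70 ± 0.28 in DKO against Rab30L-/- (adjusted p = 0.294 and 0.0805), at 1.08 to 3.33 FPKM over the 24 livers.

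**Figure D3:**
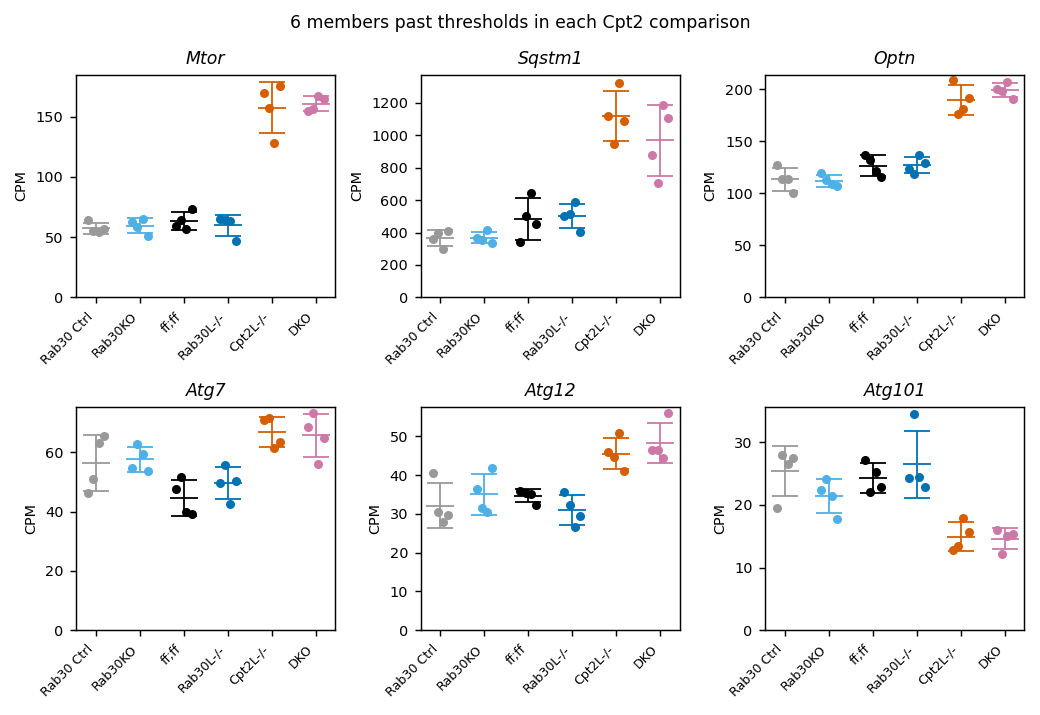
CPM of Mtor, Sqstm1, Optn, Atg7, Atg12 and Atg101 in each liver (points), with the mean and 1 SD of the 4 livers of each genotype (bars), on axes that start at 0. The Cpt2L-/- and DKO livers stand above the floxed controls and Rab30L-/- for the first 5 genes and below them for Atg101.

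In the initiation complex Atg101, which stabilises the ULK partner ATG13, was lower in both groups labelled as lacking Cpt2. It was at 12.75, 13.4, 17.9 and 15.7 CPM in Cpt2L-/-, at 16.1, 12.1, 15.0 and 15.3 CPM in DKO, at 27.2, 22.0, 25.2 and 22.9 CPM in the floxed controls and at 24.4, 34.5, 24.4 and 22.9 CPM in Rab30L-/-. The highest of these Cpt2L-/- and DKO livers was below the lowest floxed control and Rab30L-/- liver, but not below the lowest Rab30KO liver (17.7 CPM). It fell by 0.71 ± 0.15 on the log2 scale in Cpt2L-/- (adjusted p = 0.00445), by 0.74 ± 0.15 in DKO against the floxed controls (adjusted p = 0.00557) and by 0.86 ± 0.16 in DKO against Rab30L-/- (adjusted p = 0.00217). It lies at chr15:101284272-101290945 on the plus strand. Ulk2, a ULK kinase, fell by 0.48 ± 0.13 in Cpt2L-/- (adjusted p = 0.0196), from 63.5 ± 7.78 to 45.9 ± 2.58 CPM (SD, n = 4 each). The call was lost without Cpt2L-/- replicate 1 or 4 (adjusted p 0.0518 to 0.0653), and Ulk2 differed by -0.14 in DKO against Rab30L-/-. Ulk1 differed by -0.34 and -0.41 in these comparisons, with adjusted p = 0.241 and 0.0781, and Atg13 by -0.04 and -0.19.

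Of the 6 members of the PI3-kinase complex, Pik3r4 alone passed, and in 1 comparison. It was at 30.7, 33.2, 27.1 and 31.5 CPM in Cpt2L-/- against 20.7, 19.2, 17.4 and 23.2 CPM in the floxed controls, with no overlap (1.51-fold, log2 0.60 ± 0.14, adjusted p = 0.00866). In DKO it was at 27.6, 22.1, 22.7 and 19.2 CPM, which overlapped the floxed controls, and it differed by -0.03 ± 0.14 from Rab30L-/-. Its interaction value was -0.62 ± 0.19 (adjusted p = 0.0772 in edgeR), and DESeq2 called it (log2 -0.61, adjusted p = 0.0448). Becn1, the scaffold beclin 1, differed by 0.11 ± 0.13 in Cpt2L-/- against the floxed controls (adjusted p = 0.574). Pik3c3, the lipid kinase VPS34, differed by 0.14 ± 0.14 (adjusted p = 0.522). Becn1 shares 43.9% of its exons with the opposite gene Cntd1, which held 28 counts in the 24 libraries. None of the 6 members that supply membrane or transfer lipid (Atg2a, Atg2b, Atg9a, Vmp1, Wipi1 and Wipi2) passed in any comparison as fitted, though Wipi1 passed in DKO against Rab30L-/- without Rab30L-/- replicate 3 (log2 -0.45, adjusted p = 0.0474). Their log2 differences lay between -0.19 and 0.37 in Cpt2L-/- against the floxed controls and between -0.19 and 0.59 in DKO against Rab30L-/-. Vmp1 came closest in DKO against Rab30L-/- (log2 0.59 ± 0.21, adjusted p = 0.0508), and it passed there with DESeq2 (adjusted p = 0.0271).

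The 5 LC3 and GABARAP genes, whose proteins decorate the autophagosome, passed in no comparison. Summed over the family, FPKM was 361 ± 41.4 in Cpt2L-/-, 352 ± 9.47 in DKO, 336 ± 25.1 in Rab30L-/-, 322 ± 34.2 in the floxed controls, 288.5 ± 21.4 in the Rab30 controls and 276 ± 26.8 in Rab30KO (SD, n = 4 each). Gabarapl1 made up 44.9 ± 4.25% of that sum and Gabarap 30.1 ± 3.35% (SD over 24 libraries), while Map1lc3a, Map1lc3b and Gabarapl2 made up 11.4%, 7.61% and 6.03%. Map1lc3b encodes LC3B, the protein most used as a marker of autophagosomes. It was at 25.7 ± 2.74 FPKM in Cpt2L-/- and 25.6 ± 3.16 FPKM in the floxed controls, a log2 difference of 0.00 ± 0.14. Over the family the log2 differences lay between 0.00 and 0.35 in Cpt2L-/- against the floxed controls, between 0.00 and 0.19 in DKO against Rab30L-/- and between -0.26 and 0.06 in DKO against Cpt2L-/-, with SE of 0.11 to 0.19 over these comparisons.

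**Figure D4:**
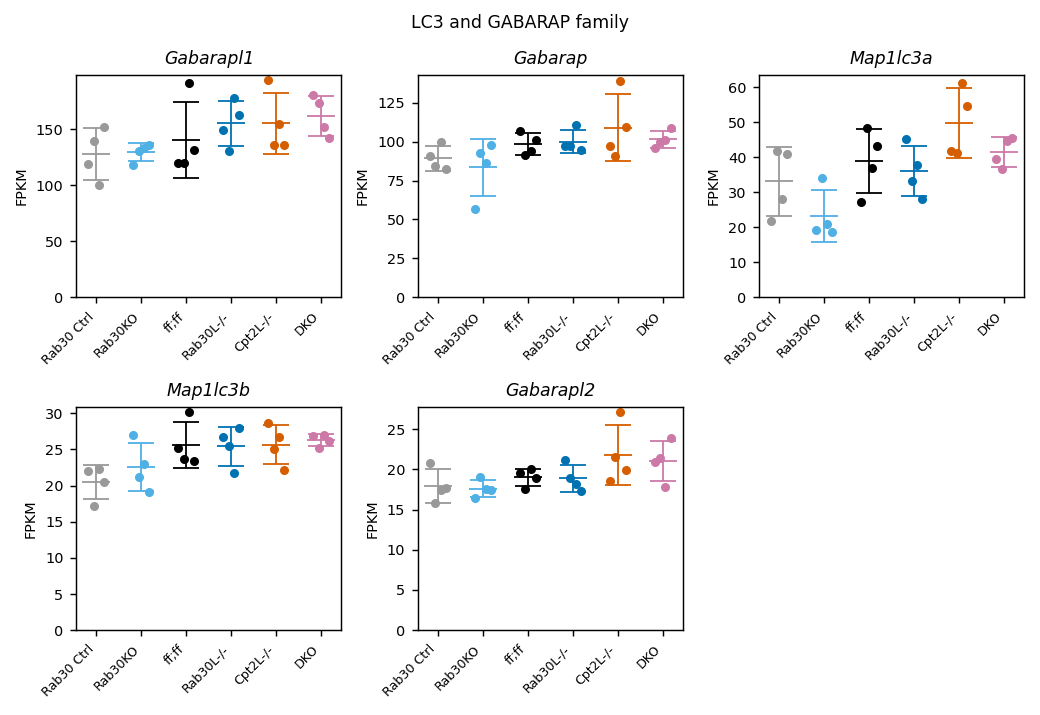
FPKM of the 5 LC3 and GABARAP genes in each liver (points), with the mean and 1 SD of the 4 livers of each genotype (bars), on axes that start at 0. The floxed controls overlap Rab30L-/-, Cpt2L-/- and DKO in every panel, and Gabarapl1 and Gabarap lie well above the other 3 genes.

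Loss of Rab30 in livers also labelled as lacking Cpt2 was read from DKO against Cpt2L-/-, where the labels again name only DKO as littermates of the floxed controls, so genotype and litter cannot be told apart. Here 2 of 41 members passed (4.88%, beside 2.71% of 13306 genes), both higher in DKO, where 1.38% of all genes were higher and 1.33% lower. Groups did not overlap for 5 members (12.2%, against 13.0% of all genes). The 2 were Bnip3 and Rb1cc1. Rb1cc1 encodes FIP200, the scaffold of the ULK complex, and Bnip3 a receptor of the outer mitochondrial membrane that is induced by hypoxia and fasting. Atg7, Atg12, Becn1, Pik3c3 and Map1lc3b differed by -0.01, 0.10, -0.23, -0.04 and 0.03 on the log2 scale, with SE of 0.11 to 0.13.

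Bnip3 was at 388, 409, 381 and 373 CPM in DKO and at 269, 266, 218 and 224 CPM in Cpt2L-/-, so the groups stood well apart (1.60-fold, log2 0.67 ± 0.12 SE, adjusted p = 0.0199). The call was lost without DKO replicate 2 (adjusted p = 0.0585), without Cpt2L-/- replicate 4 (adjusted p = 0.0858) and in the fit over all 24 libraries (adjusted p = 0.0657). Floxed controls were at 412, 243, 299 and 271 CPM and Rab30L-/- at 308, 259, 252 and 266 CPM. The first of the floxed controls was thus as high as the DKO livers, and without it Bnip3 also passed in DKO against the floxed controls (log2 0.51, adjusted p = 0.0256, against 0.33 and 0.216 with it). Against Rab30L-/- the DKO livers were 1.43-fold higher (log2 0.51 ± 0.13, adjusted p = 0.0103). Bnip3 lies at chr7:138890836-138909519 on the minus strand, on the chromosome of Rab30.

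Rb1cc1 was at 95.8, 90.0, 76.7 and 74.0 CPM in DKO and at 66.7, 55.8, 53.7 and 54.3 CPM in Cpt2L-/- (1.47-fold, log2 0.56 ± 0.13, adjusted p = 0.0426). The groups did not overlap, but the call was lost without DKO replicate 1 or 2 or Cpt2L-/- replicate 2, 3 or 4 (adjusted p 0.0906 to 0.15) and in the fit over 24 libraries (adjusted p = 0.114). The floxed controls, at 93.5, 64.9, 74.2 and 61.1 CPM, overlapped both groups, with 3 of the 4 Cpt2L-/- livers below all of them, and Rab30L-/- held 54.4, 64.3, 52.9 and 65.0 CPM. Against Rab30L-/- the DKO livers were 1.43-fold higher (log2 0.51 ± 0.13, adjusted p = 0.0133). Bnip3l, also called Nix, was at 118, 124, 111 and 119 CPM in DKO and at 86.0, 79.8, 97.3 and 95.0 CPM in Cpt2L-/-. It did not pass (log2 0.41 ± 0.10, adjusted p = 0.0588), although the groups did not overlap and DESeq2 called it (adjusted p = 0.00357). Against Rab30L-/- it was higher in DKO by 0.35 ± 0.11 (adjusted p = 0.0269), a call lost without Rab30L-/- replicate 1, 2 or 3 or DKO replicate 1 or 2 (adjusted p 0.0505 to 0.0613) and with no filter on low counts (adjusted p = 0.0699).

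The interaction test asked whether the difference between DKO and Cpt2L-/- departed from that between Rab30L-/- and the floxed controls. It passed for 3 of 41 members (7.32%, beside 4.06% of 14063 genes), all positive in edgeR, where 2.20% of all genes were positive and 1.86% negative. These were Bnip3l (log2 0.74 ± 0.15, adjusted p = 0.0116), Rb1cc1 (log2 0.87 ± 0.20, adjusted p = 0.0244) and Bnip3 (log2 0.85 ± 0.21, adjusted p = 0.0324). For each the difference was negative in Rab30L-/- against the floxed controls (-0.33, -0.32 and -0.18) and positive in DKO against Cpt2L-/- (0.41, 0.56 and 0.67), and none of the former passed on its own. The Bnip3l call held in every fit, the Rb1cc1 call was lost without Cpt2L-/- replicate 4 (adjusted p = 0.0521), and the Bnip3 call was lost without Rab30L-/- replicate 2, 3 or 4, DKO replicate 1 or 2, or Cpt2L-/- replicate 3 or 4 (adjusted p 0.0531 to 0.0742) and in the fit over 24 libraries (adjusted p = 0.0676). This test sets the DKO and floxed control livers against the other 2 groups, and the labels give those 2 as littermates, so genotype and litter cannot be told apart in it.

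**Figure D5:**
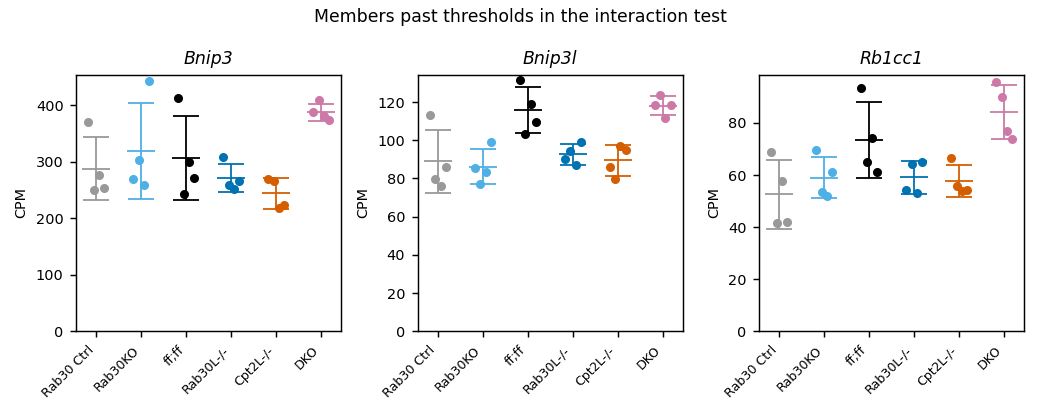
CPM of Bnip3, Bnip3l and Rb1cc1 in each liver (points), with the mean and 1 SD of the 4 livers of each genotype (bars), on axes that start at 0. DKO livers are higher than Cpt2L-/- livers in each panel, while the floxed controls lie level with or above Rab30L-/- and reach into the range of the DKO livers.

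Around these members, 76 further genes of the pathway were listed, and 74 had enough counts to be tested. None of the 74 passed in edgeR in either comparison of Rab30 loss alone. At an unadjusted p under 0.05 there were 2 in Rab30KO and 6 in Rab30L-/-, where 2.21% and 11.2% of all genes were. On loss of Cpt2, 14 passed in Cpt2L-/- against the floxed controls (18.9%, 8 higher and 6 lower), 15 in DKO against them (20.3%, 9 higher and 6 lower) and 26 in DKO against Rab30L-/- (35.1%, 17 higher and 9 lower). All genes passed at 23.8%, 16.1% and 30.7% in these comparisons, so the shares of the pathway genes lay near those of all genes. DKO against Cpt2L-/- gave 3 (4.05%, against 2.71%), and the interaction 2 (2.70%, against 4.06%).

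Of AMPK, the energy sensor that opposes mTORC1, 4, 4 and 5 of the 6 subunits passed in these comparisons (66.7%, 66.7% and 83.3%, against 23.8%, 16.1% and 30.7% of all genes). Subunits moved in both directions. Prkab2 was at 9.31 ± 2.13 CPM in Cpt2L-/- and 2.58 ± 0.62 CPM in the floxed controls (3.57-fold, adjusted p = 0.000194), and the other beta subunit gene, Prkab1, fell by 0.62 ± 0.15 on the log2 scale (adjusted p = 0.0081). Prkag2 fell by 1.07 ± 0.14 in Cpt2L-/- (adjusted p = 0.000133) and was 1.47-fold higher in DKO than in Cpt2L-/- (adjusted p = 0.0359).

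Among further subunits of mTORC1, its inputs and its substrates, 3, 5 and 9 of 31 passed (9.68%, 16.1% and 29.0%, against 23.8%, 16.1% and 30.7% of all genes). Rragd, a Rag GTPase that recruits mTORC1 to the lysosome and a known TFEB target, was at 3.89 ± 1.16 CPM in Cpt2L-/- and 1.61 ± 0.42 CPM in the floxed controls (2.40-fold, adjusted p = 0.00997), and was 3.27-fold higher in DKO than in Rab30L-/- (adjusted p = 0.00141). Flcn, part of the complex that acts on RRAGC and RRAGD, passed in all 3 comparisons (log2 0.74, 0.64 and 0.52), and its partner Fnip1 in both DKO comparisons (log2 0.94 and 1.01). The 5 subunits of the Ragulator, which anchors the Rag GTPases, did not all change the same way. Lamtor2 fell by 0.84 ± 0.18 in DKO against the floxed controls (adjusted p = 0.00819) and by 1.05 ± 0.25 against Rab30L-/- (adjusted p = 0.00966), and Lamtor4 fell by 0.67 ± 0.21 in the latter (adjusted p = 0.0311). Lamtor3 rose there by 0.59 ± 0.15 (adjusted p = 0.0105), and Lamtor1 and Lamtor5 differed by 0.04 and -0.29 (adjusted p = 0.814 and 0.125). Eif4ebp1, an mTORC1 substrate that blocks translation, was 2.04-fold higher in Cpt2L-/- (adjusted p = 0.00271) and did not pass in DKO against the floxed controls (log2 0.58, adjusted p = 0.163) or Rab30L-/- (log2 0.37, adjusted p = 0.202). Of the 6 transcription factors, Foxo1 fell by 1.02 ± 0.17 in Cpt2L-/- (adjusted p = 0.000681). It differed by -0.51 in DKO against the floxed controls (adjusted p = 0.0882), by 0.22 in DKO against Rab30L-/- (adjusted p = 0.466) and by -0.73 in Rab30L-/- against the floxed controls, with no overlap (adjusted p = 0.16). Tfeb fell by 0.46 ± 0.14 in DKO against Rab30L-/- (adjusted p = 0.0237) and differed by -0.67 and -0.35 in Cpt2L-/- and DKO against the floxed controls (adjusted p = 0.0635 and 0.315). Ncoa4, the receptor for ferritin, fell by 1.11 ± 0.20 in Cpt2L-/- and by 0.60 ± 0.17 in DKO, both against the same floxed controls, and differed by -0.15 ± 0.17 in DKO against Rab30L-/- (adjusted p = 0.558).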

How the data were processed

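RNA-seq of 24 mouse livers (6 genotypes, 4 livers each) was used. The deposited gene table holds raw counts as the authors made them, and a deposited companion table holds FPKM computed by the authors from those counts and gene length. The submitters' processing notes name HISAT2, DESeq2 and GRCm38 (mm10). The counter, the annotation release and the strand setting are not given in the sources used here. The authors' comparison tables of fold changes and p-values, and a table of normalized counts, were not used. Unmapped sample columns numbered 0.

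Groups came from the labels. Each comparison was fitted to its own 8 libraries (16 for the interaction) with edgeR 4.0.16 in R 4.3.3: filterByExpr, TMM, robust quasi-likelihood and Benjamini-Hochberg adjustment over all genes tested. SE is the log2 fold change divided by the square root of F. The thresholds followed the study's: 1.2-fold or more, and adjusted p below 0.05. Levels are CPM scaled by TMM over 24 libraries. Replicates are separate livers, and p-values test differences between groups against the spread between livers. The fits were tested on simulated counts. Alternatives were DESeq2 size factors, DESeq2 1.42.0, no low-count filter, 1 fit over 24 libraries, no fold threshold, and each library left out.

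The members, the lists of other genes and the tests were chosen with earlier results of these data known. Named members were those past the thresholds in any of 7 tests, the study's autophagy qRT-PCR panel, the LC3 and GABARAP genes, and the 3 highest and 3 lowest by FPKM; others complete a complex. The promoter windows, and Vmp1, Deptor, Rptor and Nbr1 values outside their calls, were chosen after values were seen. Of the genes, 98.0% matched GENCODE M21 coordinates, used for overlaps. Protein sequences were not used here.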

Additional observations from a re-analysis of the deposited data

Results flagged for a closer look

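The differences of Bnip3, Bnip3l and Rb1cc1 between DKO and Cpt2L-/- departed from those between Rab30L-/- and the floxed controls, with interaction values of 0.85, 0.74 and 0.87 on the log2 scale, each past the thresholds in edgeR. The Bnip3 value did not pass in the fit over 24 libraries (adjusted p = 0.0676) or in 7 of the 16 fits without 1 library, and that of Rb1cc1 did not in 1 of the 16.

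Single livers stood far from the other 3 of their group in 11 of 138 groups of named members, where chance alone flags about 1 in 20. In the Rab30 controls replicate 1 was lowest for Atg101 (19.5 CPM, the others 26.6 to 28.0) and for Atg4d (21.5 CPM, the others 35.6 to 35.7). In Rab30KO replicate 2 was highest for Map1lc3a (39.7 CPM) and lowest for Nbr1 (196 CPM). In Rab30L-/- replicate 2 was highest for Atg101 (34.5 CPM), replicate 3 highest for Gabarap (207 CPM) and replicate 4 lowest for Mtor (46.8 CPM). In Cpt2L-/- replicate 1 was highest for Atg4d (39.3 CPM) and Rb1cc1 (66.7 CPM). In the floxed controls replicate 1 was highest for Ulk2 (75.2 CPM, the others 59.4 to 60.0) and replicate 4 lowest for Pik3c3 (20.1 CPM).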

How the results depend on the processing

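The members past the thresholds gave 31 calls over the 7 tests, none of which changed sign in any fit, and 19 held in every alternative and without every single library. Counts of members called stayed within 1.5 times of the stated ones under each alternative, except in DKO against Cpt2L-/-, where the fit over 24 libraries gave 0 in place of 2. Leaving out 1 library gave 0 to 2 there (0 without DKO replicate 2 or Cpt2L-/- replicate 4, and 1 without DKO replicate 1 or Cpt2L-/- replicate 2 or 3) and 1 to 3 in the interaction (1 without Cpt2L-/- replicate 4). The cause was not tested. Some settings also added calls, with adjusted p of 0.00357 to 0.0497, for Bnip3l, Bnip3, Deptor, Atg4a, Atg4d, Atg10, Vmp1, Fundc1, Ulk1, Wipi1 and Pik3r4. Both comparisons of Rab30 loss alone stayed at 0 throughout. No paired analysis was possible because the labels give animal numbers that the groups do not share. With 4 livers a group, the SE of a member's log2 difference was 0.10 to 0.36 in the pairwise tests.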

Other observations

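Among genes of the pathway outside the 41, Tex264, a receptor for fragments of the endoplasmic reticulum, was lower in DKO (65.1 ± 1.73 CPM, SD, n = 4) than in Cpt2L-/- (88.2 ± 7.62 CPM), with adjusted p = 0.0475 in edgeR, and its interaction was -0.69 ± 0.19 on the log2 scale (adjusted p = 0.0448). Foxo1 had the other interaction call, at 1.24 ± 0.27 (adjusted p = 0.0171).

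Livers of 1 group differed in how often they were the highest or lowest over the 41 members, which do not vary independently, and this was not tested. In the floxed controls replicate 3 was the highest of its group for 21 members and replicate 1 the highest for 14 and the lowest for 15, while replicate 2 was highest for 2. In Rab30KO replicate 4 was the lowest for 21 and the highest for 12, and in Rab30L-/- replicate 3 was the lowest for 22.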
